A study of Homo sapiens with 6 samples.

Results

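The genes described here are 10 dual-specificity phosphatases (DUSP genes) whose products act on MAP kinases: DUSP1, DUSP2, DUSP4, DUSP5, DUSP6, DUSP7, DUSP8, DUSP10, DUSP14 and DUSP16. They were taken by gene symbol from a table of 60612 genes, and all 10 were present and were expressed highly enough to be tested. HSC-3, a human cell line from a squamous cell carcinoma of the mouth, was sequenced as 3 libraries of cells overexpressing IRF9 and 3 libraries of control cells. IRF9 is the DNA-binding subunit of the complex that switches on interferon-stimulated genes. The design text calls the control cells wild type. The sources used here do not give the vector, its promoter, any empty-vector treatment of the controls or the number of clones. No label ties the replicates to separate cultures; their spread, on which the p-values rest, may therefore be technical.

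MAP kinases are switched on by phosphorylation of a threonine and a tyrosine in their activation loop, and dual-specificity phosphatases remove both phosphates. The MAP kinase branches that matter here are ERK, which mostly answers growth factors, and JNK and p38, which mostly answer stress and cytokines. Several of these phosphatase genes are themselves switched on by the kinase they restrain, which closes a negative feedback loop. The 10 genes were ordered by the substrates and location their products are known for: DUSP5, DUSP6 and DUSP7 prefer ERK; DUSP1, DUSP2 and DUSP4 are inducible nuclear enzymes that act on more than 1 MAP kinase; DUSP8, DUSP10 and DUSP16 prefer JNK and p38; and DUSP14 is a small atypical enzyme that lacks the docking domain of the others.

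Promoter windows of 300 bases, from 250 bases before to 50 bases after the annotated start, were taken from RefSeq (GRCh38.p14) for 8 of the 10 genes, in 9 windows. DUSP4 was left out of the search of member windows, and no window was found for DUSP5. The windows of 5 genes are shown because they span the observed responses: DUSP2, DUSP6 and DUSP1 were higher in IRF9-overexpressing cells, DUSP8 was higher with a caveat given further on, and DUSP10 was lower. Each is written 5′ to 3′ on the strand of its gene, which is the minus strand for all 5, at chr2:96145391-96145690 for DUSP2, chr12:89352452-89352751 for DUSP6, chr5:172771146-172771445 for DUSP1, chr11:1572222-1572521 for DUSP8 and chr1:221742040-221742339 for the upstream of the DUSP10 windows. Capitals mark exact matches to the motifs searched.
DUSP2: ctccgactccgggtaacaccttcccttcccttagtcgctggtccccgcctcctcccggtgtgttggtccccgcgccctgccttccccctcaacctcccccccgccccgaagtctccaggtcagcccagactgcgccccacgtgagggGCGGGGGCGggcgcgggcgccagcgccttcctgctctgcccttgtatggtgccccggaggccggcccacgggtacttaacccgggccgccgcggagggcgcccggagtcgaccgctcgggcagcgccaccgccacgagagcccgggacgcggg
DUSP6: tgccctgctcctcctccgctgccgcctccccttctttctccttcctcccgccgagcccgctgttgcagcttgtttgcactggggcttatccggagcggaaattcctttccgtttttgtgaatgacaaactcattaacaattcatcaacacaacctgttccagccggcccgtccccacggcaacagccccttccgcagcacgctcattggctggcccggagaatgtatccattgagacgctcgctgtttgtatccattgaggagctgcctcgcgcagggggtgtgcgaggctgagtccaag
DUSP1: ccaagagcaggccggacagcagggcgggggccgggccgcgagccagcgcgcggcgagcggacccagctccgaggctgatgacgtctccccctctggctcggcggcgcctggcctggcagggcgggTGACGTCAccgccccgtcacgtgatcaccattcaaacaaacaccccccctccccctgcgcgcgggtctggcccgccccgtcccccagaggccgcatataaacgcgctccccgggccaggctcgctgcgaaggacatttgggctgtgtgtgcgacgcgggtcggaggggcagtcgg
DUSP8: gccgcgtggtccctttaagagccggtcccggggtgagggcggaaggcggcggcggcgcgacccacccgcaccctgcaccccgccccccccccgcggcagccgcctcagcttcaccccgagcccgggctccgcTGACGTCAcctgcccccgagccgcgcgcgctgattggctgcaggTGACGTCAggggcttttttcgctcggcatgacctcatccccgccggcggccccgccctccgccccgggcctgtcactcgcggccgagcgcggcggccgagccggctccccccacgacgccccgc
DUSP10: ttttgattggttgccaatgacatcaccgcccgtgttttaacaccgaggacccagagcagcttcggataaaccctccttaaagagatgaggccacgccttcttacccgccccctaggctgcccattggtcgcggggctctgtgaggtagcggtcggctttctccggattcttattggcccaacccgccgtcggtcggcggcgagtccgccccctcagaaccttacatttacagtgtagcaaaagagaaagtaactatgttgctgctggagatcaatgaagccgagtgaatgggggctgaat

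Motifs were searched on both strands as exact letters, and the share of 34943 RefSeq promoter windows of this length holding each was counted. The cAMP response element TGACGTCA, bound by CREB and ATF family factors, occurs in 1.84% of windows. It was found once in the DUSP1 window, at -125 to -118 from the start, and at -118 to -111 and -74 to -67 in the DUSP8 window. The EGR motif was searched as GCGGGGGCG, held by 5.06% of windows, and as GCGTGGGCG, held by 0.796%. The DUSP2 window had the GCGGGGGCG form at -103 to -95. The interferon-stimulated motif GAAANNGAA, the ETS core CCGGAAG, the AP-1 site TGANTCA and the serum-response CArG box were in none of the 9 windows. They occur in 8.1%, 10.2%, 7.72% and 1.3% of all windows. None of the searched motifs was in the windows of DUSP6, DUSP7, DUSP10, DUSP14 or DUSP16, which says only that these letters are not in those windows. A match is a description of the letters and not a sign of binding.

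Libraries held 61645349 to 85156099 counts, and a library's count for a member ranged from 29 (DUSP2, in a control library) to 9472 (DUSP7). Levels below are CPM (counts scaled to library size) after TMM scaling of the libraries, listed as replicates 1, 2 and 3 of each group and given as mean ± SD with n = 3. Changes are log2 fold changes of IRF9-overexpressing over control cells with their standard error (SE) from edgeR's quasi-likelihood test, whose p-values were adjusted by the Benjamini-Hochberg method over 19034 genes. A gene was called changed at an adjusted p under 0.05. IRF9 itself had 435, 423 and 120 CPM in IRF9-overexpressing cells, against 27.6, 25.1 and 44.6 CPM in control cells. Its log2 fold change was 3.35 (SE 0.41, adjusted p 4.74e-05 by edgeR). IRF9-overexpressing replicate 3 thus stood well below its 2 partners and control replicate 3 above its own. Squamous epithelial markers, led by KRT5 and KRT14, were strongly expressed in all libraries, at a summed 11148 to 11911 CPM in IRF9-overexpressing cells and 18498 to 19221 CPM in control cells. 1 of the 6 squamous markers was higher and 4 were lower. Beside this and the marker counts that follow, 19.2% of all genes tested were higher and 18.2% lower. Summed over 7 genes, fibroblast markers reached 47.5 to 51.9 CPM in IRF9-overexpressing cells and 75.9 to 80.5 CPM in control cells. Of these genes 5 were tested, of which 1 was higher, 1 lower and 3 not called. The lower one was LUM, at a mean of 11.3 CPM in IRF9-overexpressing cells and 38.9 CPM in control cells. COL1A1, with 33.6 and 35.7 CPM, did not pass. The 6 leukocyte markers reached 99.1 to 106.2 CPM in IRF9-overexpressing cells and 104.6 to 105.9 CPM in control cells. The 5 endothelial markers reached 15.5 to 16.1 CPM in IRF9-overexpressing cells and 9.18 to 11.2 CPM in control cells, with KDR at 0. Of these genes 3 were tested, of which 2 were higher and 1 not called. Most of each sum was EGFL7, at a mean of 13.5 CPM in IRF9-overexpressing cells and 8.82 CPM in control cells. The part of these marker shifts in the phosphatase results was not tested. In RNA from a whole culture, fewer cells expressing a gene and less of its RNA per cell cannot be told apart.

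Of the 10 phosphatase genes, 8 changed: 7 were higher in IRF9-overexpressing cells, 1 (DUSP10) was lower, and DUSP14 and DUSP16 did not pass. Across all genes tested, 37.4% changed, 19.2% being higher and 18.2% lower. The median log2 fold change of the 10 genes was 0.84, beside 0.0046 for all genes tested. The 10 genes were chosen with earlier results of these data known, so their counts and median are a description. With a minimum of 2-fold as well, 5 members were higher, against 3.51% of all genes, and 1 was lower, against 2.21%. The 8 changed genes had no overlap between their groups, which was so for 48.6% of all genes. In 7 of them every IRF9-overexpressing library was above every control library, which was so for 25% of all genes. Leaving out any single library, IRF9-overexpressing replicate 3 included, left the counts at 8 changed, 7 higher and 1 lower.

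**Figure D1:**
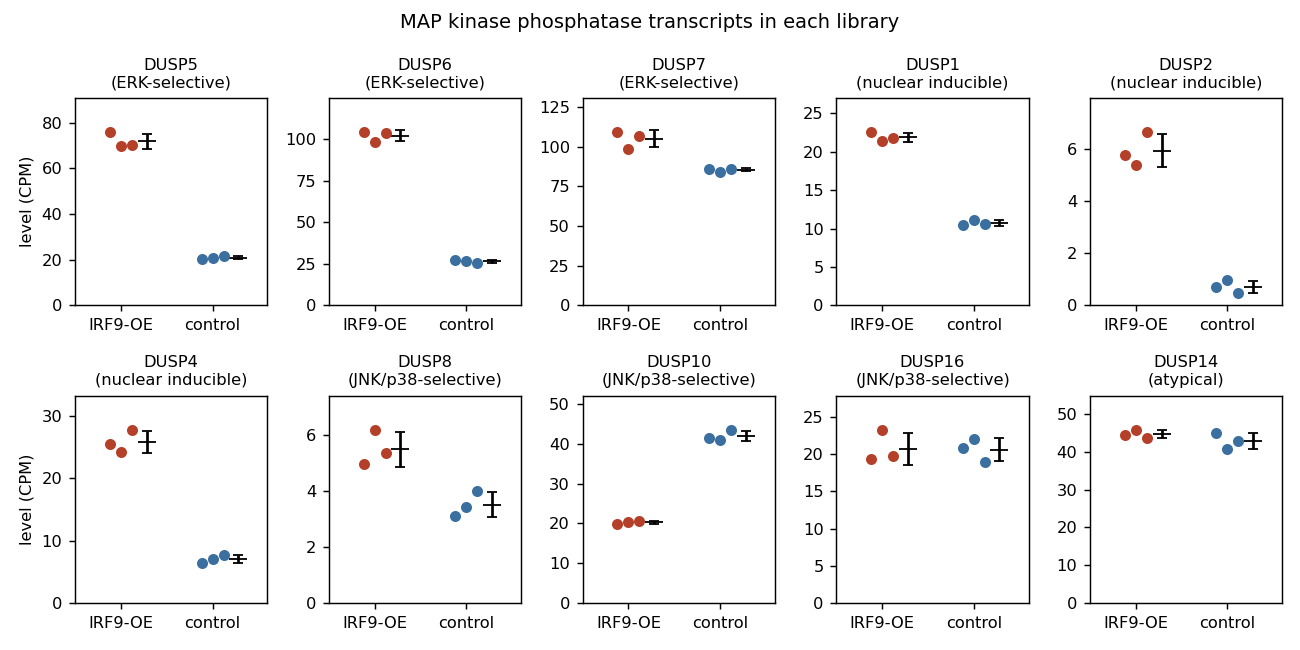
Level of each phosphatase transcript in CPM (vertical axes, each starting at 0) in the 3 IRF9-overexpressing libraries on the left of each panel and the 3 control libraries on the right. Points are libraries and bars are means with SD. Groups are apart in 8 panels and overlap for DUSP14 and DUSP16.

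All 3 ERK-preferring genes were higher in IRF9-overexpressing cells, DUSP5 and DUSP6 by more than 3-fold and DUSP7 far less. DUSP6 (chr12:89347235-89352501, minus strand, GRCh38) encodes a cytoplasmic phosphatase that is specific for ERK and whose transcription is a widely used readout of ERK activity. It had 104, 98.7 and 104 CPM in IRF9-overexpressing cells, against 27.5, 26.5 and 25.7 CPM in control cells. Every IRF9-overexpressing library lay well above every control library. Replicate 3, in which IRF9 was lowest, was not the lowest of the 3, but whether DUSP6 follows the IRF9 level was not tested. DUSP6 averaged 102.2 ± 3.11 CPM in IRF9-overexpressing cells and 26.6 ± 0.891 CPM in control cells, a log2 fold change of 1.94 (SE 0.051, adjusted p 8.02e-11 by edgeR). DUSP6 was number 189 of the 19034 genes ordered by log2 fold change.

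DUSP5 (chr10:110497907-110511533, plus strand) encodes the nuclear counterpart, which binds and inactivates ERK in the nucleus. It had 75.7, 69.5 and 70.2 CPM in IRF9-overexpressing cells, against 20.1, 20.8 and 21.4 CPM in control cells. The groups were again far apart, with less spread among control libraries. DUSP5 averaged 71.8 ± 3.35 CPM in IRF9-overexpressing cells and 20.7 ± 0.667 CPM in control cells, a log2 fold change of 1.79 (SE 0.058, adjusted p 3.90e-10 by edgeR).

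DUSP7 (chr3:52048919-52056571, minus strand) encodes a cytoplasmic ERK phosphatase closely related to that of DUSP6. It had 109, 98.9 and 107 CPM in IRF9-overexpressing cells, against 85.9, 84.4 and 86.0 CPM in control cells. The groups did not overlap, but the gap between them was small next to that of DUSP6. Its log2 fold change was 0.30 (SE 0.046, adjusted p 0.000305 by edgeR), with a 95% interval of 0.20 to 0.40. The interval for DUSP6 was 1.83 to 2.05 and that for DUSP5 was 1.67 to 1.92, so both lay above that of DUSP7.

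The inducible nuclear phosphatases were also all higher. DUSP2 (chr2:96143169-96145440, minus strand), best known from activated lymphocytes, had the largest log2 fold change of the 10 genes and one of the lowest levels. It had 5.77, 5.39 and 6.63 CPM in IRF9-overexpressing cells, against 0.691, 0.948 and 0.480 CPM in control cells. In counts this was 501, 383 and 537 in IRF9-overexpressing libraries, against 52, 69 and 29 in control libraries. DUSP2 was low but detected in every control library, and its control libraries varied most in proportion. The log2 fold change was 3.04 (SE 0.22, adjusted p 6.55e-07 by edgeR), with a 95% interval of 2.56 to 3.53, and the gene was number 47 of 19034. On log2(FPKM + 1), which understates the change of low genes, the value was 1.61. Of the 6 leukocyte markers, 3 were tested, of which 1 was higher and 1 lower, beside 19.2% and 18.2% of all genes tested. The higher marker, LAPTM5, named after its value was seen, had a log2 fold change of 0.98 (adjusted p 5.26e-05 by edgeR). The summed ranges of the 6 markers given above overlapped between the groups, but most of each sum was CD68 and CD14. Whether DUSP2 came from a leukocyte-like state was not tested.

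DUSP4 (chr8:29333064-29350684, minus strand), which encodes a nuclear phosphatase of ERK and JNK, had 25.5, 24.2 and 27.7 CPM in IRF9-overexpressing cells, against 6.35, 7.08 and 7.62 CPM in control cells. Its log2 fold change was 1.89 (SE 0.092, adjusted p 1.67e-08 by edgeR), close to those of DUSP5 and DUSP6. DUSP1 (chr5:172768096-172771195, minus strand) encodes a stress- and growth-factor-induced nuclear phosphatase of p38, JNK and ERK. It had 22.5, 21.4 and 21.8 CPM in IRF9-overexpressing cells, against 10.4, 11.1 and 10.6 CPM in control cells. Both genes had groups well apart. The log2 fold change of DUSP1 was 1.03 (SE 0.074, adjusted p 5.03e-07 by edgeR), with an interval of 0.87 to 1.19 that lay below the 1.68 to 2.09 of DUSP4.

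The JNK- and p38-preferring genes did not share a direction: DUSP10 was lower, DUSP16 did not pass and DUSP8 was higher by its own counts. DUSP10 (chr1:221701424-221742089, minus strand) encodes a phosphatase of JNK and p38 that restrains both in epithelial and immune cells. It had 19.8, 20.3 and 20.7 CPM in IRF9-overexpressing cells, against 41.6, 41.0 and 43.4 CPM in control cells. Each group was tight and they were far apart. DUSP10 averaged 20.2 ± 0.445 CPM in IRF9-overexpressing cells and 42.0 ± 1.27 CPM in control cells, a log2 fold change of -1.05 (SE 0.057, adjusted p 4.14e-08 by edgeR). Counted from the most lowered gene, it was number 699 of 19034.

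DUSP16 (chr12:12473282-12562863, minus strand), whose product shuttles between cytoplasm and nucleus and prefers JNK, had 19.3, 23.2 and 19.7 CPM in IRF9-overexpressing cells, against 20.8, 22.1 and 18.9 CPM in control cells. The groups overlapped throughout. The log2 fold change was 0.00098 (SE 0.087, adjusted p 0.994 by edgeR), and the 95% interval of -0.19 to 0.19 excludes a change as large as that of DUSP10 in either direction.

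DUSP8 (chr11:1554051-1572271, minus strand) encodes a phosphatase of JNK and p38 and was the lowest of the 10 per unit of length in IRF9-overexpressing cells. It had 4.95, 6.17 and 5.34 CPM in IRF9-overexpressing cells, against 3.10, 3.42 and 3.99 CPM in control cells. These groups did not overlap. The log2 fold change was 0.65 (SE 0.15, adjusted p 0.0051 by edgeR). DUSP8 has an annotated processed pseudogene, DUSP8P5 (chr10:73731824-73733638, plus strand), that could share reads with it. DUSP8P5 had 1.42, 1.39 and 1.55 CPM in IRF9-overexpressing cells, against 2.05, 2.49 and 3.01 CPM in control cells, a log2 fold change of -0.77 (SE 0.22, adjusted p 0.0156 by edgeR). The pseudogene thus moved opposite to the gene. DUSP8 held 77.8%, 81.6% and 77.5% of the counts of the pair in IRF9-overexpressing libraries, against 60.2%, 57.9% and 57.0% in control libraries. Summed, the pair had 6.37, 7.56 and 6.90 CPM in IRF9-overexpressing cells, against 5.14, 5.91 and 6.996 CPM in control cells. The sums overlapped between the groups and their log2 fold change did not pass, at 0.21 (SE 0.13, 95% interval -0.079 to 0.51, adjusted p 0.241 by edgeR). The higher level of DUSP8 is therefore uncertain, and whether reads were split between the pair differently in the groups was not tested.

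**Figure D2:**
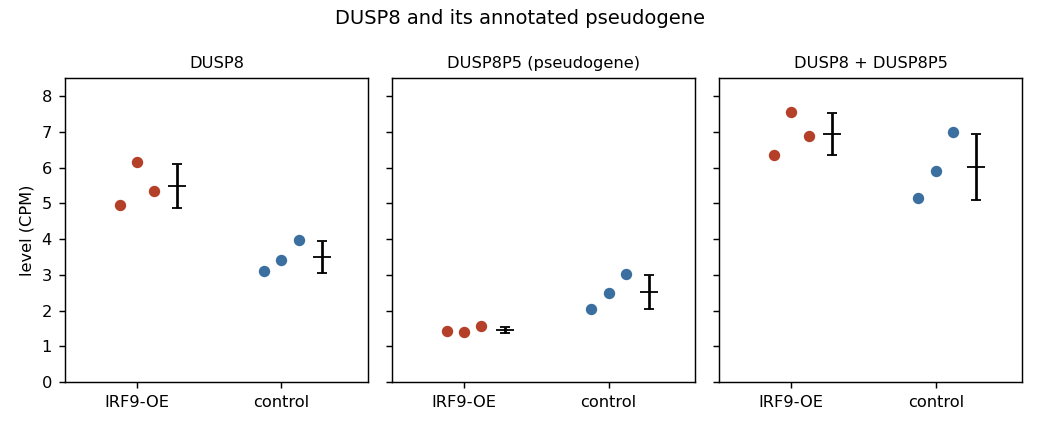
Levels in CPM of DUSP8, its annotated pseudogene DUSP8P5 and their sum, with IRF9-overexpressing libraries left and control libraries right in each panel. Points are libraries and bars are means with SD. Every IRF9-overexpressing library is above every control library for DUSP8 and below for DUSP8P5, and the sums overlap.

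DUSP14 (chr17:37489891-37513501, plus strand), the atypical member, had 44.4, 45.7 and 43.6 CPM in IRF9-overexpressing cells, against 44.8, 40.8 and 43.0 CPM in control cells. Its groups overlapped. The log2 fold change was 0.056 (SE 0.054, 95% interval -0.061 to 0.17, adjusted p 0.453 by edgeR).

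DUSP5 also has pseudogene copies, and DUSP6 an antisense neighbour whose reads cannot be told from its own unless counting used strand, which the sources used here do not say. The antisense transcript AC024909.1 (chr12:89351015-89353271, plus strand) overlaps the start of DUSP6 and had 1.22, 0.887 and 1.31 CPM in IRF9-overexpressing cells, against 0.346, 0.316 and 0.430 CPM in control cells. It was itself higher, with a log2 fold change of 1.67 (SE 0.35, adjusted p 0.00251 by edgeR). Adding it to DUSP6 left the log2 fold change at 1.94. Adding the pseudogenes DUSP5P1 and DUSP5P2 to DUSP5 gave 1.74 (SE 0.054, adjusted p 2.92e-10 by edgeR). The antisense genes at DUSP1, DUSP8 and DUSP16 were too low to be tested.

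**Figure D3:**
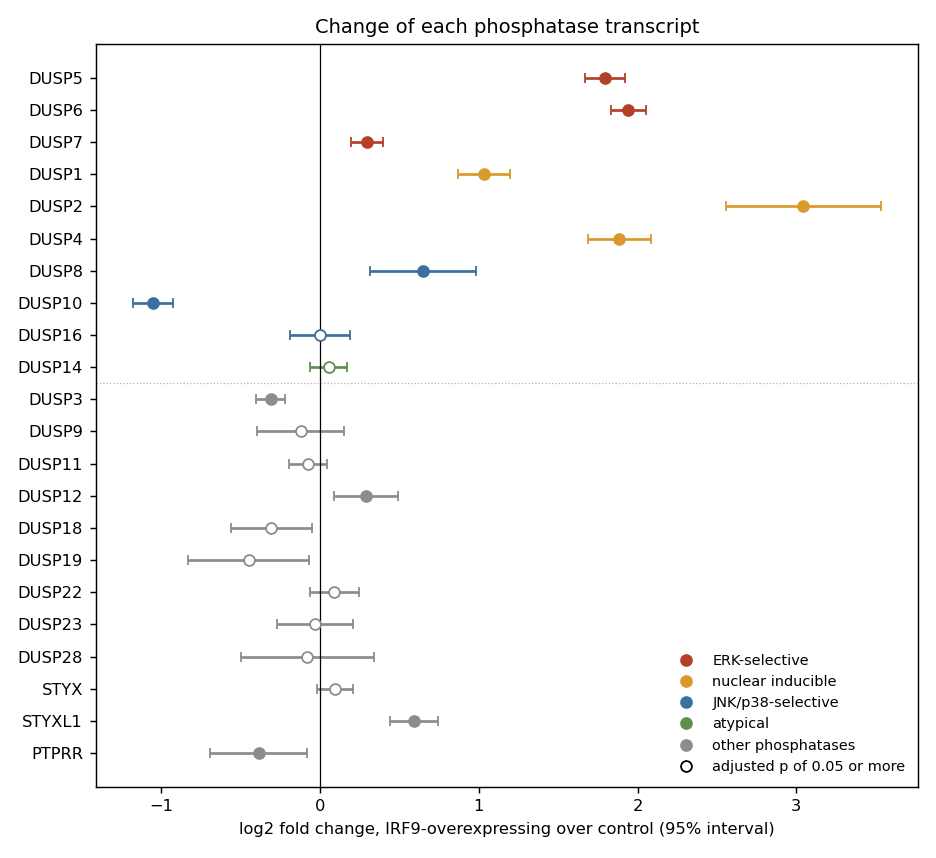
Log2 fold change of IRF9-overexpressing over control cells (horizontal axis) for the 10 phosphatase transcripts, coloured by substrate class, and for 12 other phosphatases in grey, with 95% intervals. Open points had an adjusted p of 0.05 or more. The ERK-preferring and inducible nuclear genes among the 10 lie right of 0 and DUSP10 lies left, at -1.05.

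Set class against class, the ERK-preferring genes had a mean log2 fold change of 1.35 and the JNK- and p38-preferring genes one of -0.13, a difference of 1.48. The inducible nuclear genes had a mean of 1.99. The same difference was computed within each library as the mean log2 CPM of DUSP5, DUSP6 and DUSP7 minus that of DUSP8, DUSP10 and DUSP16. It was 2.94, 2.62 and 2.83 in IRF9-overexpressing libraries, against 1.38, 1.30 and 1.28 in control libraries. Gene length cancels when these differences are compared between libraries, and the libraries of the groups stood far apart beside a largest within-group SD of 0.162. The 3 genes of a class are not replicates, so no test was made. With 1 gene left out at a time, the class difference was 1.02 without DUSP10, 1.18 without DUSP6 and 1.254 without DUSP5. It was 1.55 without DUSP16, 1.87 without DUSP8, whose call is uncertain, and 2.00 without DUSP7, the least changed ERK-preferring gene.

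Levels between genes were compared on the authors' length-scaled values, taken as FPKM. Summed over the 10 genes, the level was 132.7 ± 2.58 FPKM in IRF9-overexpressing cells and 81.9 ± 1.45 FPKM in control cells. ERK-preferring transcripts made up 79.4 ± 3.11 FPKM in IRF9-overexpressing cells and 34.6 ± 0.417 FPKM in control cells. As a share of the sum this was 59.8% ± 1.18 in IRF9-overexpressing cells and 42.3% ± 0.560 in control cells. The inducible nuclear transcripts made up 12.6% ± 0.346 in IRF9-overexpressing cells and 7.15% ± 0.475 in control cells. JNK- and p38-preferring transcripts made up 8.23% ± 0.706 in IRF9-overexpressing cells and 21.5% ± 0.180 in control cells. Their own sum was 10.9 ± 0.721 FPKM in IRF9-overexpressing cells and 17.6 ± 0.435 FPKM in control cells. DUSP10 alone held 7.0 and 14.2 FPKM of these sums, and the share also depends on the rise of the other classes. DUSP14, whose own level differed little, made up 19.4% ± 0.523 in IRF9-overexpressing cells and 29.1% ± 1.01 in control cells. The share of each class lay outside the range of the other group in all libraries.

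**Figure D4:**
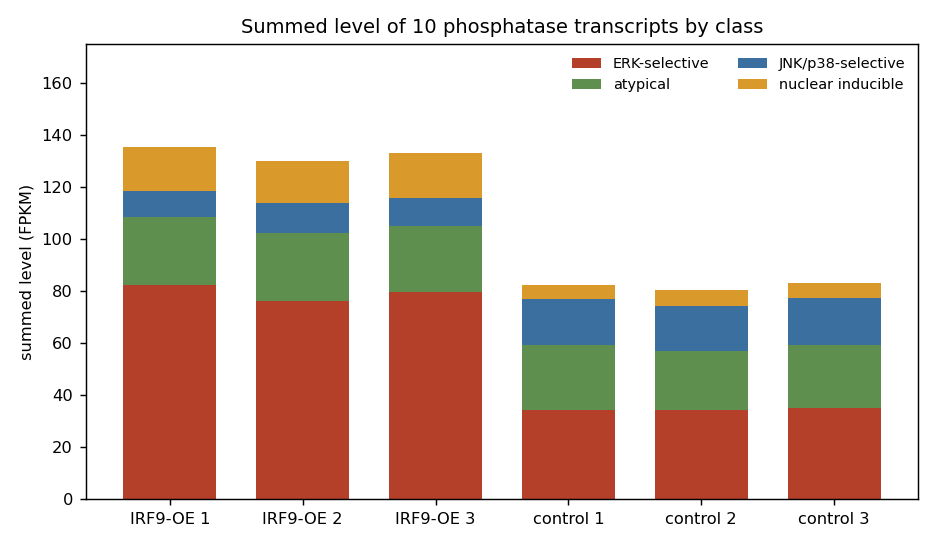
Summed FPKM of the 10 phosphatase transcripts (vertical axis) in each library, stacked by substrate class, with the 3 IRF9-overexpressing libraries left of the 3 control libraries. The ERK-preferring block averages 79.4 FPKM in IRF9-overexpressing cells and 34.6 FPKM in control cells.

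The order of the levels differed between the groups. In IRF9-overexpressing cells DUSP7 (27.2 FPKM), DUSP6 (26.8), DUSP14 (25.7) and DUSP5 (25.3) led, and the ranges of neighbours in this order overlapped across libraries. Within libraries, DUSP7 was above DUSP6 and DUSP6 above DUSP5 in all 3, while DUSP14 was above DUSP6 and DUSP7 in replicate 2 and below both in replicates 1 and 3. DUSP1 (9.45 FPKM), DUSP10 (7.0) and DUSP4 (4.06) followed without overlap. DUSP2 (3.20 FPKM) and DUSP16 (2.86) overlapped, and DUSP8 (1.06) was lowest. In control cells the order was DUSP14 (23.8 FPKM), DUSP7 (21.2), DUSP10 (14.2), DUSP5 (7.0), DUSP6 (6.37), DUSP1 (4.42), DUSP16 (2.81), DUSP4 (1.05), DUSP8 (0.618) and DUSP2 (0.376), and no neighbours overlapped. The ratio of DUSP6 to DUSP10 in FPKM was 4.14, 3.61 and 3.75 in IRF9-overexpressing libraries, against 0.448, 0.484 and 0.417 in control libraries. DUSP6 was thus the higher of the pair in every IRF9-overexpressing library and the lower in every control library. The ratio of DUSP6 to DUSP7 was 0.983, 0.997 and 0.972 in IRF9-overexpressing libraries, against 0.303, 0.314 and 0.282 in control libraries, so the related cytoplasmic enzymes were near parity in IRF9-overexpressing libraries and DUSP7 was well above DUSP6 in control libraries. Scaling the counts by the longest transcript instead moved 5 genes to another place in IRF9-overexpressing cells and 2 in control cells. These were DUSP2, DUSP5, DUSP6, DUSP14 and DUSP16 in IRF9-overexpressing cells and DUSP7 and DUSP14 in control cells.

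Other genes of the pathway were taken from lists of known components, which were chosen with earlier results of these data known. Beside the counts of these lists, 37.4% of all genes tested changed, 19.2% being higher and 18.2% lower. Of 18 other dual-specificity or related phosphatases, 12 were tested, and 2 were higher, 2 lower and 8 not called. Their median log2 fold change was -0.078. STYXL1, a catalytically inactive relative, was higher (log2 fold change 0.59, adjusted p 3.38e-05 by edgeR) and DUSP3, a small phosphatase of ERK and JNK, was lower (-0.31, adjusted p 0.000104 by edgeR). DUSP12 had 0.29 (adjusted p 0.0285 by edgeR), and PTPRR, named after its value was seen, had -0.38 (adjusted p 0.0485 by edgeR). Without filtering low counts the number of changed genes in this list was 2. It was also 2 without IRF9-overexpressing replicate 1, without control replicate 1 and without control replicate 3. The largest change in this list, 0.59, was smaller in size than those of 7 of the 10 genes. These include DUSP8 at 0.65, whose call is uncertain.

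In the RAS-RAF-MEK-ERK cascade, 2 of 26 genes were higher, 9 were lower and 15 were not called, and the median log2 fold change was -0.13. For this list and the next, the shares of all genes tested were 19.2% higher and 18.2% lower. Scaling by library size alone gave 5 higher and 5 lower, and 7 genes changed without control replicate 3. The higher genes numbered 1 when any library other than IRF9-overexpressing replicate 1 was left out. MRAS, a RAS-related GTPase, was higher (1.06, adjusted p 0.000753 by edgeR). The other higher gene, RPS6KA2, named after its value was seen, had 0.14 (adjusted p 0.0406 by edgeR). The kinase MKNK1 and the exchange factor SOS2 were lower (-0.35 and -0.42, adjusted p 0.000136 and 0.000164 by edgeR). In the JNK and p38 cascades, 8 of 26 genes were higher, 7 lower and 11 not called, with a median of -0.043, and 10 were higher and 5 lower by library size alone. Without IRF9-overexpressing replicate 3, 5 were higher and 5 lower, and without control replicate 2, 5 were higher and 6 lower. MAP2K6, a kinase that activates p38, averaged 4.24 ± 0.393 CPM in IRF9-overexpressing cells and 9.99 ± 0.129 CPM in control cells (log2 fold change -1.23, adjusted p 4.17e-06 by edgeR). RPS6KA4, a kinase downstream of p38 and ERK, and MAPK8IP3, a JNK scaffold, had -0.39 and -0.40 (adjusted p 2.00e-05 and 3.78e-05 by edgeR). Some genes of the substrate kinases, named here for their role and not for their p-values, had small differences. The JNK genes MAPK8 and MAPK9 had log2 fold changes of 0.18 and 0.16. The p38 gene MAPK14 had -0.23, and these 3 genes passed the test. MAPK3, which encodes an ERK kinase, had 0.089 and did not pass (adjusted p 0.178 by edgeR).

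Among 13 ERK-responsive transcripts other than DUSP genes, 12 were higher and none lower, with a median log2 fold change of 1.04. Of all genes tested, 19.2% were higher and 18.2% lower. The ERK-responsive list was chosen with earlier results of these data known, so its count is a description. The transcription factor genes EGR1, FOS and FOSL1 had the smallest p-values in it. EGR1 had 788, 729 and 769 CPM in IRF9-overexpressing cells, against 92.6, 85.8 and 93.7 CPM in control cells (log2 fold change 3.07, adjusted p 1.57e-12 by edgeR). FOS and FOSL1 had log2 fold changes of 2.76 and 2.05 (adjusted p 8.51e-12 and 6.35e-11 by edgeR). The exception was EPHA4, named after its value was seen, with -0.59 and an adjusted p of 0.127 by edgeR. Of 16 transcription factors that MAP kinases phosphorylate, 6 were higher and 5 lower, with a median of 0.085, and 7 were higher and 3 lower by library size alone. The lower genes numbered 3 without IRF9-overexpressing replicate 1, without control replicate 2 and without control replicate 3. JUN, a JNK substrate, was higher (1.14, adjusted p 2.10e-09 by edgeR), as were ELK3 and SRF (0.42 and 0.38, adjusted p 1.77e-05 and 4.19e-05 by edgeR). The 5 lower genes, named after their values were seen, were CIC, ERF, ETS2, ATF2 and CREB1, with log2 fold changes of -0.37 to -0.16.

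**Figure D5:**
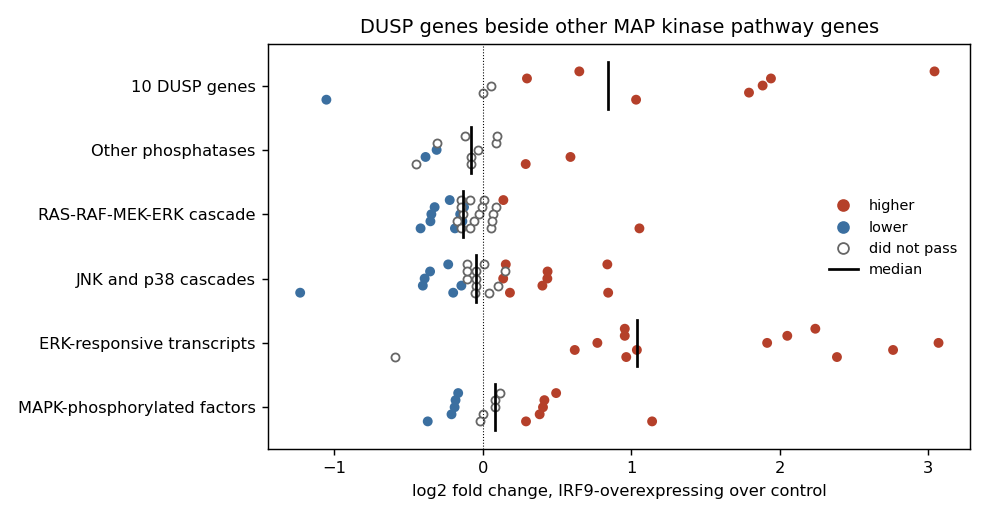
Log2 fold change of IRF9-overexpressing over control cells (horizontal axis) for each tested gene of the 10 phosphatases and of the 5 other lists (rows). Filled points passed the test, open points did not and vertical lines are medians, which are 0.84 for the 10 phosphatases and 1.04 for ERK-responsive transcripts and lie near 0 in the other rows.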

How the data were processed

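Whole-number counts per gene in 6 libraries were deposited by the authors, unnormalised. The authors also deposited length-scaled values, taken as FPKM from the values because the header names no unit. Tools named, without role or order, in the submitters' processing notes are edgeR, StringTie, HISAT2, FastQC, Trimmomatic and CASAVA 1.8, with the build GRCh38. Annotation release and strand setting: not given in the sources used here.

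The test was edgeR's (version 4.0.16, R 4.3.3): filterByExpr (minimum count 10, minimum total 15), TMM scaling, and a quasi-likelihood fit with group as its term, tested on simulated data. P-values were adjusted by Benjamini-Hochberg over 19034 genes and called under 0.05. SEs came from the test statistic. Alternatives used DESeq2 1.42.0 and limma 3.58.1. The deposited FPKM was also put on a log2 scale with a pseudocount of 1 or 0.1.

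The members and lists were chosen with earlier results of these data known. By rule, the named genes were the 10 members, IRF9 and up to 3 changed genes of smallest p per pathway list. Up to 2 markers of highest level per marker list were also named. Other genes were named as pseudogene or antisense neighbours of members, for their role, or after their values were seen. Replicate numbers did not pair the libraries.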

Additional observations from a re-analysis of the deposited data

How the results depend on the processing

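Of 200 values (10 members under 20 alternatives), 193 kept their direction and their side of the threshold. DUSP7 and DUSP8, at 0.30 and 0.65, failed a minimum of 2-fold, which left 6 changed members, and summing DUSP8 with its pseudogene gave 0.21, which left 7. DUSP16, near 0 and never called, was negative under RLE scaling (-0.00348), with limma-voom (-0.00514), without IRF9-overexpressing replicate 2 (-0.081) and without control replicate 3 (-0.051). Its range with 1 library left out was -0.081 to 0.054. The cause was not tested. The class difference was 1.41 to 1.56 with 1 library left out, and 1.02 without DUSP10, 1.18 without DUSP6, 1.254 without DUSP5, 1.87 without DUSP8 and 2.00 without DUSP7. Leaving out single genes, the summed copies and the legacy form of edgeR's fit were chosen after seeing the data. With the replicate number as a block, 8 members changed, although same-numbered libraries did not deviate together (correlations of 0.072, 0.0082 and -0.021).

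Over all genes, a minimum of 2-fold left 1090 changed genes, 669 higher and 421 lower, and the FPKM fits gave 2090 (pseudocount 1) and 2074 (0.1) lower genes. With 1 library left out, 5784 to 6912 genes changed, 2981 to 3539 higher and 2803 to 3373 lower. Changed genes among the other phosphatases, 4 in the reported fit, were 2 with no filter on low counts, 2 at an adjusted p under 0.01, 0 at 2-fold and 2 to 4 with 1 library left out. Those of the RAS-RAF-MEK-ERK cascade, 11 as reported, were 6 in both FPKM fits, 7 at 0.01, 1 at 2-fold and 7 to 12 with 1 library left out. At 2-fold, 1 JNK or p38 cascade gene, 7 ERK-responsive transcripts and 1 phosphorylated factor were left. With levels per kilobase of the longest transcript, 5 places in the order differed in IRF9-overexpressing cells and 2 in control cells. The promoter search had no alternative window. Low counts of DUSP2 and DUSP8 limit their precision most.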
